A study of Coccomyxa subellipsoidea C-169 with 6 samples.

Results

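Photosystem II is the pigment and protein complex of the thylakoid membrane that uses light to split water and passes the electrons on to plastoquinone. Its core is surrounded by small membrane subunits and by an outer antenna of chlorophyll a/b binding proteins. Extrinsic proteins on the lumenal side help to stabilize the oxygen-evolving manganese cluster. In plants and green algae most core proteins are encoded in the chloroplast, while the extrinsic proteins, part of the small subunits and the outer antenna are encoded in the nucleus. The 10 genes described here were all drawn under photosystem II in the study's pathway scheme. They were 10 of the 9409 genes in the deposited table, and all 10 were among the 8637 genes with enough counts to be tested. Locus tags of the RefSeq annotation repeat the numbers of the table, so gene 30169's tag is COCSUDRAFT_30169. By description, 30169's, 67011's and 64185's products belong to the antenna and 21093's to the core. Likewise, 30990's and 13028's belong to the extrinsic subunits, and 48009's and 52123's to the small subunits. For 32536's and 43923's no description was found in the sources used here.

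The study grew the unicellular green alga Coccomyxa subellipsoidea C-169 in Bold's Basal Medium under continuous light. CG cultures received 2% CO2 and AG cultures received 0.04% CO2, the level of air, after a shared pre-culture at the level of air. Cells were harvested on day 4, and poly(A) RNA was sequenced from 3 CG and 3 AG cultures of this 1 strain. The comparison asks how transcripts of the light reactions responded to CO2 supplementation.

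The libraries held 2674507 to 3740989 counts in CG and 3825993 to 4969639 counts in AG. CG 1 stood apart from CG 2 and CG 3. The chi-square per degree of freedom between pairs of libraries, which is 1 where counts differ by counting noise alone, was 33.4 between CG 1 and CG 2 and 45.7 between CG 1 and CG 3. It was 2.75 between CG 2 and CG 3 and 3.33 to 5.86 among the AG pairs. The ribosomal protein L5 gene, which the study used as its qRT-PCR reference, was at 135, 258 and 292 CPM in CG 1, CG 2 and CG 3, against 371, 299 and 354 CPM in AG 1, AG 2 and AG 3. In edgeR its log2 fold change, CG over AG, was -0.58 (adjusted p = 0.124), which did not pass the threshold used below. Without CG 1 the edgeR value was -0.31 (adjusted p = 0.0163).

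Levels are given as CPM, the counts of a gene scaled to the library total and adjusted by the trimmed mean of M-values (TMM), or as the deposited RPKM, which also divides by transcript length. Both are relative to the other transcripts of a library, so that fewer transcripts of a gene and more RNA of other genes cannot be told apart, nor can fewer expressing cells and less RNA per cell. A gene is said to have fallen in CG where the quasi-likelihood test of edgeR gave a Benjamini-Hochberg adjusted p under 0.05 over all tested genes. A log2 fold change (LFC) is CG over AG, with its standard error (SE).

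Upon CO2 supplementation all 10 photosystem II genes fell. Every CG library lay below every AG library for each of them. The LFC was between -2.71 and -1.03, with a median of -1.39, against a median of -0.01 over all genes tested. Of all tested genes 25.0% were called lower, and in 30.7% every CG library was below every AG library. The study drew these genes after analysing the same libraries, so their common direction is not independent evidence. Together the 10 genes took 1.06, 0.546 and 0.416% of all counts in CG 1, CG 2 and CG 3, against 1.74, 1.79 and 1.75% in AG 1, AG 2 and AG 3.

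**Figure D1:**
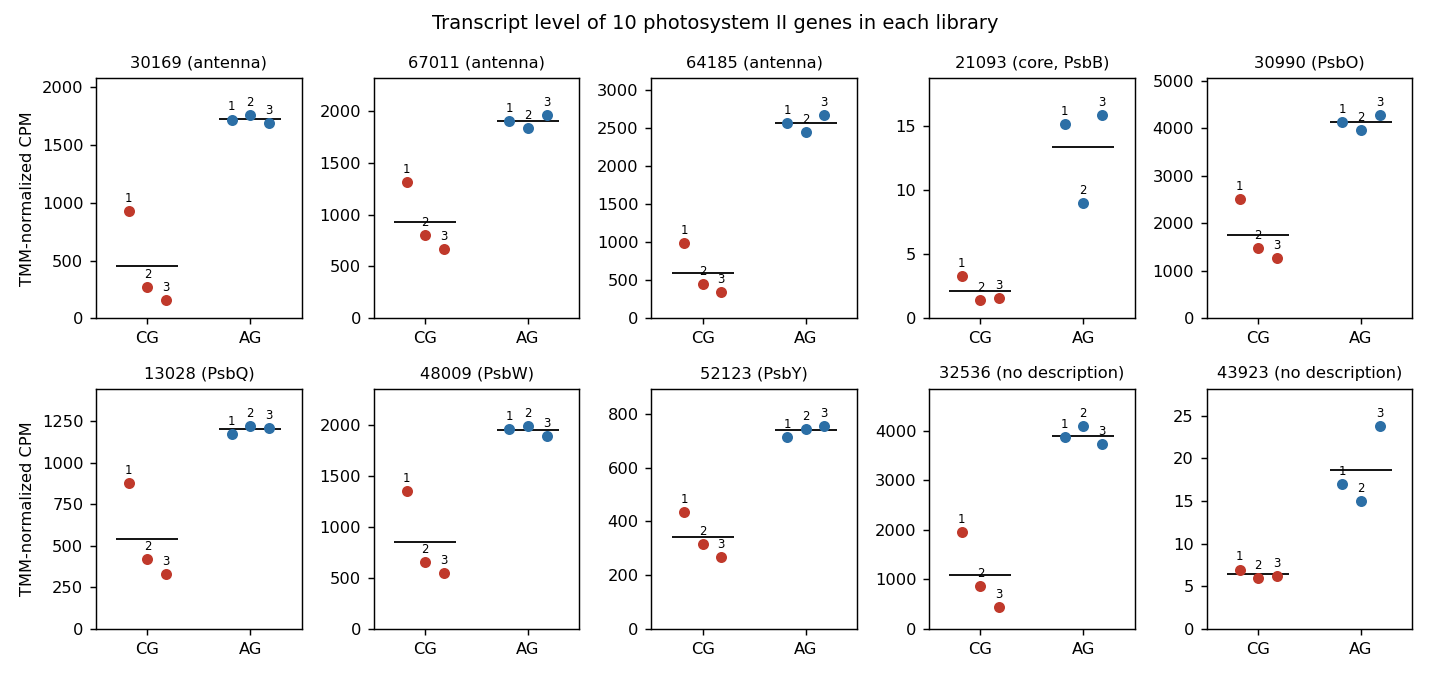
TMM-normalized CPM of each of the 10 genes in the 3 CG libraries (left) and the 3 AG libraries (right). Points are libraries with their replicate number, lines are group means, and every axis starts at 0. In all 10 panels the highest CG point is CG 1 and lies below the lowest AG point.

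Antenna proteins bind chlorophyll and feed light energy to the core. Among their genes, COCSUDRAFT_30169 and COCSUDRAFT_67011 carry the same description, a light harvesting complex of photosystem II. COCSUDRAFT_30169 was at 926, 273 and 162 CPM in CG 1, CG 2 and CG 3, against 1722, 1761 and 1690.2 CPM in AG 1, AG 2 and AG 3. It was the gene whose CG libraries differed most, with a range of 2.51 on the log2 scale, against 0.06 within AG. Its mean was 3.80-fold lower in CG, and edgeR gave an LFC of -1.93 (SE 0.61, adjusted p = 0.0325). Without CG 1 the LFC was -3.00.

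COCSUDRAFT_67011 was at 1314, 806 and 671 CPM in CG 1, CG 2 and CG 3, against 1903, 1838 and 1959.6 CPM in AG 1, AG 2 and AG 3. Its fall was the smallest of the 10, with an LFC of -1.03 in edgeR (SE 0.27, adjusted p = 0.0152). For each count of COCSUDRAFT_67011 there were 0.704, 0.338 and 0.241 counts of COCSUDRAFT_30169 in CG 1, CG 2 and CG 3, against 0.905, 0.958 and 0.862 in AG 1, AG 2 and AG 3. Such a count ratio within a library does not depend on scaling. The log2 ratio averaged -1.37 in CG (SD 0.79) and -0.14 in AG (SD 0.08, n = 3 each), with no overlap, and the exact two-sided permutation test gave p = 0.1. This is the smallest p that 3 against 3 libraries allow, and it was 0.167 when adjusted over the 5 ratios compared.

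COCSUDRAFT_64185 is described as photosystem II antenna 5, in Arabidopsis a minor antenna protein placed between the main antenna and the core, and is called Lhcb5 here. It was at 982, 454 and 345 CPM in CG 1, CG 2 and CG 3, against 2558, 2449.9 and 2669 CPM in AG 1, AG 2 and AG 3. Even CG 1 was at 38.4% of the AG mean, and CG 3 was at 13.5%. The LFC in edgeR was -2.11 (SE 0.39, adjusted p = 0.00396). Relative to COCSUDRAFT_67011, counts of Lhcb5 stood at 0.747, 0.563 and 0.514 in CG 1, CG 2 and CG 3, against 1.34, 1.33 and 1.36 in AG 1, AG 2 and AG 3. The log2 ratio was lower in CG by a difference of -1.16, without overlap, with an exact permutation p = 0.1 and an adjusted value of 0.167.

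The counts of these 3 antenna genes were partly fractional, while the other 7 genes had whole counts in all libraries. In COCSUDRAFT_30169 and COCSUDRAFT_67011 the fractions were the same, with 0.5 in CG 1, CG 2, CG 3 and AG 3 and whole counts in AG 1 and AG 2. This pattern was found in 12 genes of the table. Counts of Lhcb5 were fractional in 5 libraries, with a pattern found in no other gene. Reads could have been divided between similar antenna genes, although the study describes counting reads that matched uniquely to a gene. Any part of such a division in these differences was not tested.

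The extrinsic proteins of the oxygen-evolving complex were represented by COCSUDRAFT_30990, matched to PsbO, which stabilizes the manganese cluster, and by COCSUDRAFT_13028, matched to PsbQ, which in plants helps to retain calcium and chloride. PsbO was at 2513, 1469.7 and 1265 CPM in CG 1, CG 2 and CG 3, against 4134, 3959.8 and 4281 CPM in AG 1, AG 2 and AG 3. It had the highest CPM of the 10 genes in all libraries except AG 2. Its mean was 2.36-fold lower in CG, with an LFC of -1.24 in edgeR (SE 0.29, adjusted p = 0.00941).

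PsbQ was at 874, 422 and 331 CPM in CG 1, CG 2 and CG 3, against 1171, 1221 and 1206 CPM in AG 1, AG 2 and AG 3. In CG 1 it kept 72.9% of the AG mean, more than any of the other 9 genes, while CG 2 and CG 3 were at 35.2 and 27.6%. The edgeR fit gave an LFC of -1.15 (SE 0.36, adjusted p = 0.0310). There were 0.348, 0.287 and 0.261 counts of PsbQ per count of PsbO in CG 1, CG 2 and CG 3, against 0.283, 0.308 and 0.282 in AG 1, AG 2 and AG 3. These ratios overlapped, with log2 means of -1.75 in CG (SD 0.21) and -1.78 in AG (SD 0.07, n = 3 each), and the exact permutation p was 0.8. The difference of 0.03 changed sign without CG 1, to -0.09.

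Small membrane subunits help to assemble and stabilize the complex. COCSUDRAFT_48009, matched to PsbW, was at 1353, 656 and 548 CPM in CG 1, CG 2 and CG 3, against 1959.6, 1993 and 1890.3 CPM in AG 1, AG 2 and AG 3. In edgeR PsbW had an LFC of -1.19 (SE 0.35, adjusted p = 0.0241). COCSUDRAFT_52123, matched to PsbY, was at 435, 318 and 268 CPM in CG 1, CG 2 and CG 3, against 714, 745 and 756 CPM in AG 1, AG 2 and AG 3. Its CG libraries were the most even of the 8 abundant genes, with a range of 0.69 on the log2 scale, and its LFC in edgeR was -1.12 (SE 0.20, adjusted p = 0.00317). The count ratio of PsbW to PsbY was 3.11, 2.06 and 2.04 in CG 1, CG 2 and CG 3, against 2.74, 2.68 and 2.50 in AG 1, AG 2 and AG 3. CG 1 thus lay above all AG libraries, and CG 2 and CG 3 lay below them. The mean difference of -0.16 in log2 did not pass, with an exact permutation p of 0.4.

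**Figure D2:**
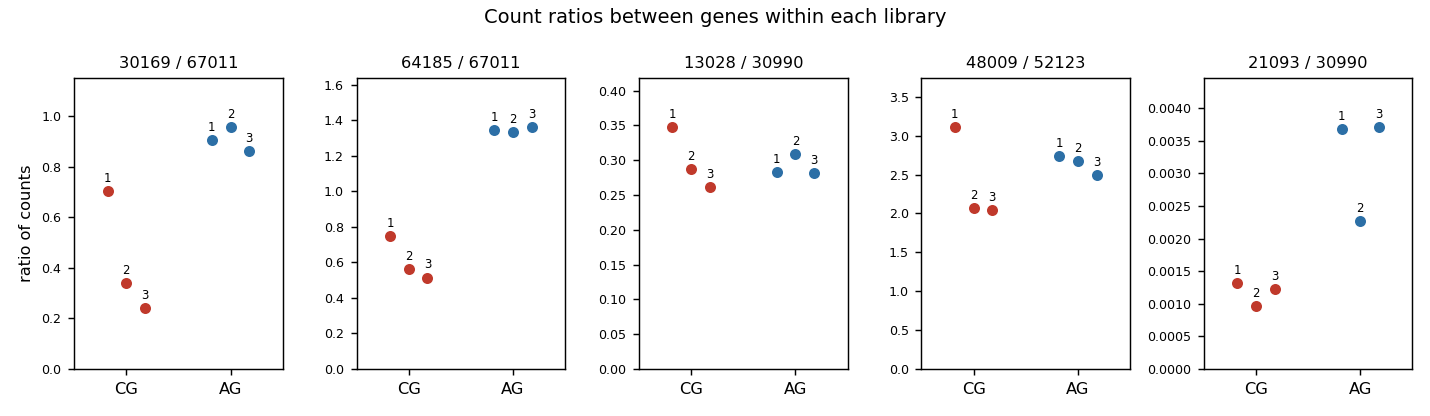
Ratio of the counts of a pair of genes within each library, for 5 pairs named by the numbers of their locus tags, with CG left of AG, replicate numbers beside the points and axes from 0. The ratios of the antenna genes to COCSUDRAFT_67011 and of PsbB to PsbO are lower in all 3 CG libraries, while that of PsbQ to PsbO overlaps between the groups.

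COCSUDRAFT_32536 has no description in the part of the supplementary text used here, where its place in photosystem II rests on the study's scheme alone. It was at 1964, 859 and 434 CPM in CG 1, CG 2 and CG 3, against 3877, 4105 and 3729.9 CPM in AG 1, AG 2 and AG 3. Its CG libraries were at 50.3, 22.0 and 11.1% of the AG mean, so that CG 2 and CG 3 differed more than in any of the other 9 genes. The LFC in edgeR was -1.85 (SE 0.51, adjusted p = 0.0200), and -2.60 without CG 1.

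The remaining pair of genes was expressed at a far lower level. PsbB, the inner antenna protein of the core, is in plants and algae encoded in the chloroplast genome, and 1 of the 10 genes is matched to it. The libraries were made from poly(A) RNA, and the study states that its analysis cannot detect photosystem components of the chloroplast genome. The origin of the few reads counted for the matched gene was not tested. This gene had 9, 4 and 6 counts in CG 1, CG 2 and CG 3, against 58, 34 and 76 counts in AG 1, AG 2 and AG 3. These are 3.30, 1.41 and 1.55 CPM in CG and 15.2, 8.98 and 15.9 CPM in AG, with no overlap. Its LFC of -2.71 was the largest fall of the 10 (SE 0.39, adjusted p = 0.00124 in edgeR). Summed over libraries, the 19 counts in CG and 168 in AG gave a ratio of 0.158 at equal depth, with an exact 95% interval from 0.0927 to 0.254. Such intervals hold for counting error alone, as reads had no molecular identifiers. The count ratio of PsbB to PsbO was lower in CG by a difference of -1.33 in log2, without overlap (exact permutation p = 0.1, adjusted 0.167).

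A further gene with the same PsbB description, outside the 10, was at 1.47, 1.77 and 1.81 CPM in CG 1, CG 2 and CG 3, against 16.0, 8.72 and 17.6 CPM in AG 1, AG 2 and AG 3. AG 2 was the lowest AG library for both. Neither PsbB gene was among the 9372 genes of the table that could be matched to the RefSeq genes of the C-169 assembly, and their sequences were not compared.

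COCSUDRAFT_43923 also has no description in the sources used here. It had 19, 17 and 24 counts in CG 1, CG 2 and CG 3, against 65, 57 and 114 counts in AG 1, AG 2 and AG 3. These correspond to 6.97, 6.01 and 6.21 CPM in CG and 17.1, 15.1 and 23.8 CPM in AG. Of the 10 genes it was the only 1 whose CG libraries were closer together than its AG libraries, with log2 ranges of 0.20 in CG and 0.65 in AG. The edgeR fit gave an LFC of -1.55 (SE 0.23, adjusted p = 0.00150). The ratio of summed counts was 0.355, with a counting interval from 0.263 to 0.473.

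**Figure D3:**
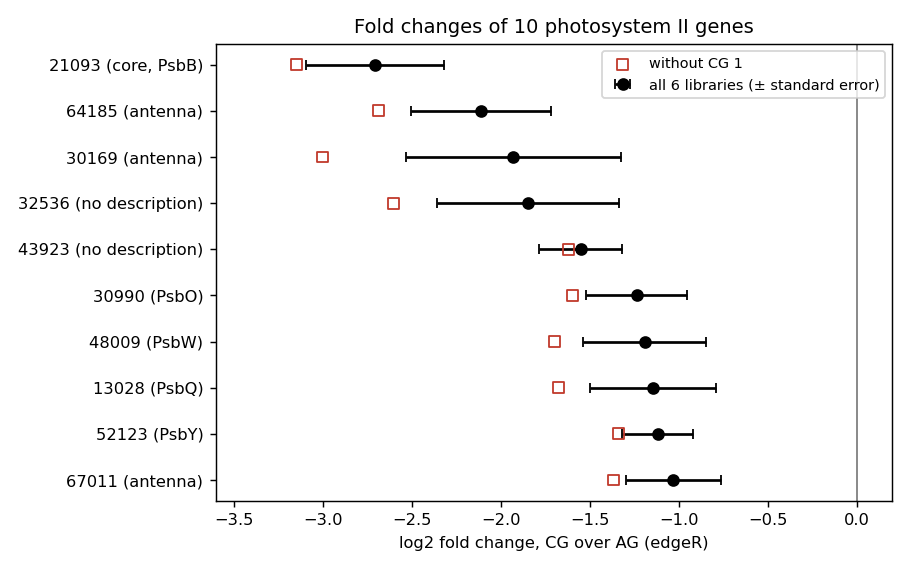
Log2 fold change, CG over AG, of the 10 genes in edgeR, with the standard error, from all 6 libraries (filled circles) and without CG 1 (open squares). All values are below 0, from -2.71 for PsbB to -1.03 for COCSUDRAFT_67011, and each is lower still without CG 1.

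Per transcript length, the AG order ran from COCSUDRAFT_32536 at 3467 ± 223 RPKM and PsbO at 3172 ± 82.1 RPKM to PsbQ at 2258 ± 80.4, COCSUDRAFT_30169 at 1878 ± 68.2 and Lhcb5 at 1697 ± 51.4 RPKM. It went on with COCSUDRAFT_67011 at 1261 ± 24.4, PsbW at 1249 ± 50.9 and PsbY at 619 ± 23.1 RPKM (SD, n = 3 each). These 8 genes were among the 160 highest of all 9409 genes in AG. COCSUDRAFT_43923 and PsbB, at 27.1 ± 6.42 and 14.6 ± 3.98 RPKM, ranked 5063 and 6755. The libraries of COCSUDRAFT_67011 and PsbW overlapped, and all other neighbours in this order had AG values that did not overlap.

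In CG the order was different, with PsbO at 1425 ± 531 RPKM ahead of PsbQ at 1079 ± 569 and COCSUDRAFT_32536 at 1018 ± 732 RPKM (SD, n = 3 each). COCSUDRAFT_30169 at 521 ± 470 RPKM and Lhcb5 at 416 ± 235 RPKM now stood behind COCSUDRAFT_67011 at 654 ± 232 and PsbW at 578 ± 291 RPKM. Neighbours in the CG order overlapped, apart from the step down from PsbY at 302 ± 73.2 RPKM to COCSUDRAFT_43923 at 9.89 ± 0.686 and then to PsbB at 2.42 ± 1.20 RPKM.

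As a share of the counts of the 10 genes, PsbO made up 24.2, 27.9 and 31.4% in CG 1, CG 2 and CG 3, against 22.9, 21.9 and 23.5% in AG 1, AG 2 and AG 3. COCSUDRAFT_67011 also took a larger share, with 12.7, 15.3 and 16.6% in CG 1, CG 2 and CG 3, against 10.5, 10.2 and 10.8% in AG 1, AG 2 and AG 3. Conversely, COCSUDRAFT_32536 made up 18.9, 16.3 and 10.8% in CG 1, CG 2 and CG 3, against 21.5, 22.7 and 20.5% in AG 1, AG 2 and AG 3. Every CG library lay beyond the AG range for 9 of the 10 genes. Shares were higher in CG for 5 of them, PsbO, COCSUDRAFT_67011, PsbQ, PsbW and PsbY, and lower for 4, COCSUDRAFT_32536, COCSUDRAFT_30169, Lhcb5 and PsbB. COCSUDRAFT_43923 overlapped. The shares of a library add up to a fixed total, so lower shares of some genes raise those of others. The 5 genes with higher shares fell themselves, with an LFC from -1.24 for PsbO to -1.03 for COCSUDRAFT_67011 in edgeR. How often shares within other sets of 10 genes lie beyond the AG range was not tested.

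The depth of the fall differed between the CG libraries. For all 10 genes CG 1 lay between the AG mean and both other CG libraries, as it did for 42.6% of all tested genes and 61.0% of the genes called lower. The median over the 10 genes, relative to the AG mean of each on the log2 scale, was -0.83 in CG 1, -1.55 in CG 2 and -1.84 in CG 3. In 8 of the 10 genes CG 3 was the lowest library and CG 2 the next, which held for 12.5% of all tested genes and 37.0% of those called lower. The exceptions were PsbB and COCSUDRAFT_43923, where CG 2 was lowest by a small margin. Libraries of a group have no order, so these values describe the cultures and no trend. Within CG, the RNA integrity reported by the study was highest in CG 2 and lowest in CG 3. The part of library quality or culture state in the differences between CG libraries was not tested.

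**Figure D4:**
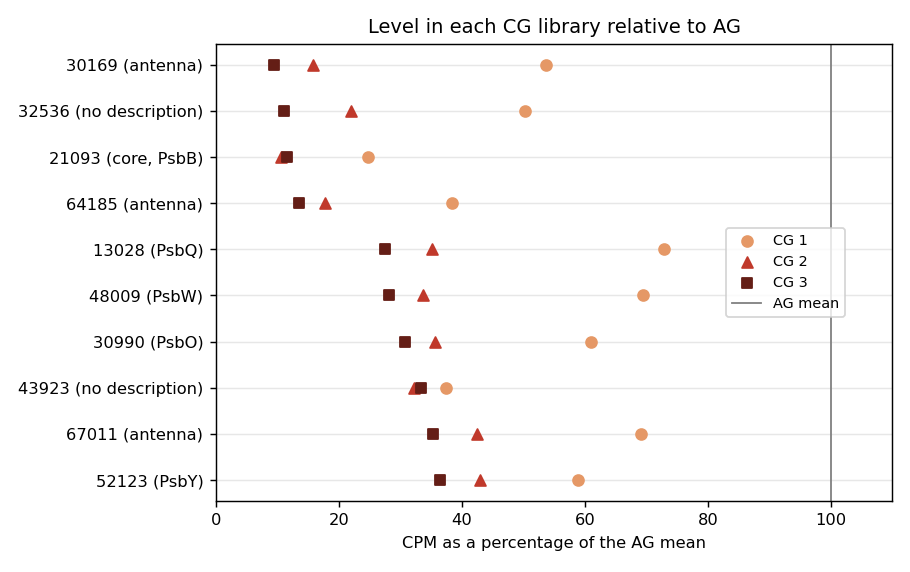
CPM in CG 1, CG 2 and CG 3 as a percentage of the AG mean of each gene, which is the line at 100. CG 1 is nearest to the AG mean for all 10 genes, between 24.7% for PsbB and 72.9% for PsbQ, and CG 3 lies between 9.37% for COCSUDRAFT_30169 and 36.4% for PsbY.

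Within CG the range over libraries had a median of 1.15 on the log2 scale over the 10 genes, against 0.44 over all tested genes. Within AG the medians were 0.10 over the 10 genes and 0.24 over all tested genes. Between CG 2 and CG 3 alone they were 0.26 and 0.13. The 10 genes thus had a wider median range than all tested genes within CG and a narrower one within AG. The 6 photosystem I subunit genes described below were alike, with ranges of 1.10 to 1.35 within CG and 0.06 to 0.17 within AG. Most of the 10 genes are abundant, while all tested genes include many with fewer counts, and the part of counting noise in these ranges was not tested.

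PsbQ and PsbW had the most similar profiles over the 6 libraries. Their Euclidean distance, taken on log2 CPM minus the AG mean, was 0.12. Next came COCSUDRAFT_67011 and PsbY at a distance of 0.25, and PsbO and PsbW at 0.28. The steeply falling COCSUDRAFT_30169 and COCSUDRAFT_32536 were 0.54 apart, while COCSUDRAFT_30169 and COCSUDRAFT_67011, with the same description, were 2.41 apart. Among the 2250 other tested genes with at least 100 CPM in AG, the 5 nearest to the median profile were COCSUDRAFT_40720, COCSUDRAFT_54324, COCSUDRAFT_11833, COCSUDRAFT_56585 and COCSUDRAFT_17988, at distances of 0.11 to 0.17. None of these 5 is in the lists of photosystem genes set out below, and their descriptions are not given here. COCSUDRAFT_40720 was at 206, 121 and 105 CPM in CG 1, CG 2 and CG 3, against 352, 344 and 367 CPM in AG 1, AG 2 and AG 3.

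Criteria stated in the study's methods, a log2 change beyond 1 and an adjusted p under 0.001, were met by 0 of the 10 genes in edgeR, although 10 had an unadjusted p under 0.05. Of all tested genes 5.60% were lower at these criteria. In DESeq2 7 of the 10 met them, where 9.25% of genes were lower, and in limma 1 did, where 5.08% were lower on log2(RPKM + 1) and 4.94% on log2(RPKM + 0.1). Without CG 1, 9 of the 10 met them in edgeR, where 13.7% of genes were lower. The exception was COCSUDRAFT_32536 with an adjusted p of 0.00222 in edgeR. The study does not name the test behind its false discovery rate, so these counts do not repeat its own calls. Apart from the antenna, it reported most nuclear-encoded photosystem II components as significantly suppressed. Nearly all antenna genes of both photosystems were reported separately, as strongly reduced. The 10 genes here include antenna genes, so the sets differ.

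All 10 genes fell at an adjusted p under 0.05 without CG 1. In that fit 34.2% of all genes were called lower. With another library left out fewer of the 10 genes passed, and fewer of all genes did too. Without CG 2 there were 5 (19.2% of all genes lower) and without CG 3 there were 8 (20.8%). There were 5 without AG 1 (19.1%), 6 without AG 2 (20.1%) and 5 without AG 3 (18.9%). The calls lost were those of COCSUDRAFT_30169, COCSUDRAFT_67011, PsbQ, PsbW and COCSUDRAFT_32536, at adjusted p from 0.0504 to 0.104 in edgeR. With an AG library left out their LFC stayed close to its value with all libraries, as for COCSUDRAFT_30169 at -1.94 without AG 1, against -1.93. Lhcb5, PsbB, PsbO, PsbY and COCSUDRAFT_43923 passed in each of these fits.

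Other photosystem genes with a description mostly moved in the same direction. All 7 other genes described as photosystem II fell, with a median LFC of -1.61, where 25.0% of all tested genes were called lower. They include COCSUDRAFT_27246, an antenna gene at 764 ± 225 CPM in CG and 2513 ± 177 CPM in AG, and COCSUDRAFT_52698, matched to PsbX, at 919 ± 418 CPM in CG and 2311 ± 128 CPM in AG (SD, n = 3 each). A gene described as oxygen-evolving complex 1, which is singled out here after its values were seen, had the most negative LFC of these 7, with 1, 1 and 2 counts in CG 1, CG 2 and CG 3, against 81, 66 and 118 counts in AG 1, AG 2 and AG 3.

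All 4 genes matched to chlorophyll a/b binding protein 1 fell, with a median LFC of -1.51. All 6 subunit genes of photosystem I fell, with an LFC from -1.54 to -1.27, and so did 7 of its 8 antenna genes. The exception was COCSUDRAFT_66689, which rose, at 421, 319 and 122 CPM in CG 1, CG 2 and CG 3, against 12.9, 21.1 and 4.81 CPM in AG 1, AG 2 and AG 3. Of all tested genes 25.0% were called lower and 27.3% higher. These lists were drawn from genes already called by the authors on the same libraries, so the counts are not independent evidence. Relative to the AG mean, the median over the photosystem I subunits was -0.82 in CG 1, -1.78 in CG 2 and -2.04 in CG 3 on the log2 scale, beside -0.83, -1.55 and -1.84 for the 10 photosystem II genes.

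Gene order was used to set the photosystem II genes beside their neighbours. The 9 genes matched to the RefSeq assembly lie on 7 scaffolds, and 0 annotated genes overlap them. Of their 18 direct neighbours 6 fell, 3 rose and 9 did not pass the edgeR test, with a median LFC of 0.00, beside 25.0% lower and 27.3% higher among all tested genes. COCSUDRAFT_30169 and COCSUDRAFT_67011 lie on the same scaffold with 13 genes between them, and of the 12 of these that were tested 2 fell and 4 rose, beside the same shares. The neighbour of COCSUDRAFT_30169, COCSUDRAFT_43344, singled out after its values were seen, was at 109 CPM in CG and 917 CPM in AG, with an LFC of -3.08 (SE 0.26, adjusted p = 0.000153 in edgeR).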

How the data were processed

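RNA of 3 CG and 3 AG cultures was measured by single-end sequencing. The authors mapped clean reads of 36 nt with Bowtie (version not given in the sources used here) to the C-169 transcripts of Phytozome, allowing 1 mismatch, and counted sense and antisense hits. The deposited values are estimated counts, since 8.06% of them, in 1206 genes, were not whole within 1e-06. The deposited RPKM values were computed by the authors from these counts. Columns that hold the authors' own comparison (means per group, changes and FDR) were not used.

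Counts were rounded and fitted over all genes in R 4.3.3 with edgeR 4.0.16 (TMM, filterByExpr, robust quasi-likelihood fit, Benjamini-Hochberg adjustment), after a check on simulated data. Standard errors are the log2 fold change divided by the square root of F. Log2 levels used CPM plus 0.5, and count ratios a pseudocount of 0.5. Ratios were compared by exact permutation tests in scipy 1.17.1. The study calls the cultures of a group biological replicates. The labels themselves do not say that the cultures were grown apart, so p-values measure the spread between these libraries. Alternatives were other scalings and filters, unrounded counts, a fit that is not robust, a replicate block, each library left out, DESeq2 1.42.0 and limma 3.58.1.

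The members and lists were chosen with earlier results of these data known. The genes named are the 10 members, the 5 nearest in profile, and from each list at most 4 with the highest CPM or going the other way. The table numbers its genes, and COCSUDRAFT locus tags of RefSeq carry the same numbers. The gene called PsbB is 21093 in the table, the further PsbB gene is 21127, the L5 gene is 54775 and the oxygen-evolving complex 1 gene is 11180. Lists by product name were planned but could not be made with the reference tables used here. Gene order was taken from the RefSeq assembly, without coordinates, since the files do not name theirs.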

Additional observations from a re-analysis of the deposited data

How the results depend on the processing

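The 10 genes were lower in CG in all 17 alternative fits, with the PsbB gene not tested under the filter of 10 CPM. Of their fold changes 148 kept their call, 21 no longer passed and 0 reversed. All 21 losses came from fits with 1 library left out. The number of genes that fell was then 5 to 10, with 5 without CG 2, AG 1 or AG 3, 6 without AG 2 and 8 without CG 3. Calls over all genes moved too, with 1646 to 2983 genes lower in these fits, against 2157 with all libraries. The number that met the study's criteria, 0 in edgeR with all libraries, was 0 to 9 with 1 library left out (9 without CG 1), 7 in DESeq2, and 1 in limma on log2(RPKM + 1) or log2(RPKM + 0.1). The cause of these differences was not tested. The log2 ratio of PsbQ to PsbO reversed without CG 1 (-0.086, against 0.12 at the other end of the fits with 1 library left out), and the other 4 ratios kept their sign. No label ties replicates of the same number to each other, and the deviations of such libraries correlated at -0.0339, 0.0374 and -0.0504 over genes. With a replicate block in edgeR 10 genes fell, 0 met the study's criteria, their median log2 fold change was -1.43, and 1973 genes were called lower in all. Depth limits PsbB, with 4 to 9 counts in CG libraries, and COCSUDRAFT_43923, with 17 to 24.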
